A study of Mus musculus with 75 samples.

Results

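The genes of the elastic fibre were followed in all RNA-seq count tables of a study of replicative senescence in mouse skin fibroblasts. They were chosen by name: elastin (Eln), the fibrillins Fbn1 and Fbn2, the fibulins Fbln1, Fbln2, Fbln5 and Efemp2, and the microfibril-associated proteins Mfap2, Mfap4 and Mfap5. All 10 genes were present in the tables, out of 24984 genes, and all 10 had enough counts to be tested in each of the 5 experiments. Elastin transcripts were lost as the cells aged in culture: the mean level was 27.5 ± 5.54 CPM (counts scaled to the library total, SD, n = 4) at P1 and 4.02 ± 2.44 CPM (n = 4) at P7. Most of the other genes moved the opposite way over the same passages, and the summed share of counts of all 10 genes rose from a mean of 0.649% ± 0.0327 at P1 to 1.15% ± 0.0974 at P7. Fbln2 (means of 3500 CPM at P1 and 6810 CPM at P7) and Fbn1 (2210 and 3240 CPM) made up most of this sum.

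Elastic fibres let skin recoil after it is stretched. Fibroblasts secrete tropoelastin, the product of Eln, which gathers into small globules at the cell surface, is placed on a scaffold of microfibrils built from fibrillins, and is joined into an insoluble network by lysyl oxidases. Fibulins bring tropoelastin, microfibrils and lysyl oxidases together, and microfibril-associated proteins decorate the scaffold.

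The skin fibroblasts came from C57BL/6 mice, and those of the passage series from 2-month-old female animals. Passage libraries were made at P1, P3, P5 and P7, with 4 libraries at each passage, where P denotes the number of passages in culture and P7 is the senescent end of the series. The interventions used lentiviruses. E2f4, a transcription factor of the cell cycle, was overexpressed (E2f4 OE, 2 libraries) from a doxycycline-inducible construct and compared with an EGFP vector (2 control libraries), all under doxycycline, in cells that the study describes as P4. E2f4 was knocked down with hairpin sh1 in cells described as P3, Tead1 with sh3 and sh4, and Atf3 with sh5 and sh6. The study describes the cells of the Atf3 knockdown as pre-senescent, and the labels give no passage for the Tead1 and Atf3 libraries. Each hairpin had 3 libraries, and each knockdown experiment had 3 libraries of a non-targeting hairpin (nt) from cells that also carried the virus and were selected with puromycin. Tead1 encodes a DNA-binding partner of the YAP pathway, and Atf3 encodes a stress-induced factor of the ATF family. Cells for the interventions came from newborn and 2-month-old mice, and the labels do not say which animals gave which library. Nor do the labels tie replicates to separate animals or cultures, so p-values measure the spread between these libraries, which may be technical.

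Total counts per library lay between 9147324 and 27552949. The targeted gene passed the test in the labelled direction in 5 of 6 comparisons. E2f4 rose from a mean of 41.5 to 1150 CPM with E2f4 OE, where counts from the transgene are included, and fell from 60 to 21.3 CPM with sh1. Tead1 fell from 541 CPM to 279 with sh3 and 316 with sh4. Atf3 was a low gene: the nt libraries held 3.31, 2.85 and 2.77 CPM, the sh5 libraries 1.46, 2.10 and 0.451 CPM, and the sh6 libraries 1.51, 1.56 and 2.09 CPM. It fell with sh5 (edgeR, adjusted p = 0.0447). Its difference with sh6 did not pass (log2 fold change −0.79, adjusted p = 0.114), although all sh6 libraries lay below all nt libraries. The sh6 libraries are treated as labelled, without a fall of Atf3 that passed in these counts. The study states that it checked its knockdowns by RT-qPCR and immunoblot, which these counts do not replace.

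Fibroblast markers (Col1a1, Col1a2, Pdgfra, Dcn, Lum and Thy1) were detected in every group, with none of the 6 at 0. Their summed level was 16300 to 17800 CPM over the P1 libraries and 23900 to 24900 CPM over the P7 libraries. As single genes they were divided: 3 rose and 3 fell from P1 to P7, and all 3 falls were over 2-fold. P1 cultures also held RNA of other cells. The summed levels were 279 to 427 CPM for 6 macrophage markers, 55.5 to 356 CPM for 6 keratinocyte markers, 126 to 132 CPM for 4 endothelial markers and 92.9 to 122 CPM for 4 adipocyte markers, with none of these markers at 0. At P7 the same sums were 33.6 to 48.7, 4.73 to 7.72, 6.98 to 9.49 and 1.19 to 5.84 CPM, and 2 of the keratinocyte and 2 of the adipocyte markers were at 0. Other sums were higher at P7. That of 6 smooth muscle and pericyte markers was 2170 to 3420 CPM at P1 and 4950 to 7000 CPM at P7 (3 rose and 1 fell from P1 to P7, 4 rose and 1 fell from P5 to P7), and that of 5 Schwann cell and melanocyte markers was 33.1 to 41.3 CPM at P1 and 39.8 to 120 CPM at P7, which overlapped. Skeletal muscle markers summed to 117 to 180 CPM at P1 and 38.6 to 109 CPM at P7, where 3 of the 6 were at 0. From P1 to P7, 4 of the 5 tested fell over 2-fold and none passed as a rise. Of the 6 macrophage markers, 5 fell over 2-fold and none passed as a rise. The part of these shifts in the passage results was not tested. In bulk samples, fewer cells of a type and less RNA per cell cannot be told apart.

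On GRCm38, the assembly of mm10, Eln lies at chr5:134702595-134747368 on the minus strand, Fbn1 at chr2:125300594-125506485 (minus), and Fbn2 on chromosome 18. Fbln1 lies at chr15:85205949-85286294 (plus), Fbln2 at chr6:91212460-91272540 (plus), Fbln5 at chr12:101746565-101819119 (minus) and Efemp2 at chr19:5473946-5482520 (plus). Mfap2 lies at chr4:141010424-141015976, Mfap4 at chr11:61485431-61488708 and Mfap5 at chr6:122513584-122529290, all on the plus strand. Counting ignored strand, and 2 of the genes overlap a gene on the other strand, Eln with Gm30003 and Fbn2 with Gm41741, so their counts can hold reads of these partners. The other 8 genes overlap none.

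Per kb of exon, the level of the genes spanned a wide range. At P1 the mean was 783 CPM per kb for Fbln2 and 223 CPM per kb for Fbn1, followed by Efemp2 at 67.6, Mfap5 at 63.9, Fbln5 at 54.3 and Fbln1 at 21.7 CPM per kb. The lowest were Mfap2 at 8.35, Eln at 7.13, Mfap4 at 3.85 and Fbn2 at 1.83 CPM per kb. Eln was thus 8th of the 10 at P1, and at P7, with 1.04 CPM per kb, it was the last of the 10, next to Fbn2 at 1.11 and Mfap4 at 1.36 CPM per kb. Fbln2 stayed first, at 1520 CPM per kb. The order is a description, and neighbours such as Efemp2 and Mfap5 at P1, or the 3 lowest genes at P7, were not tested against each other.

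From the RefSeq tables on GRCm38.p6, promoters of 6 of the 10 genes were searched, 11 promoters in all. There was no entry for Eln, Mfap4 and Mfap5, and no promoter of Fbn2 was searched. Each promoter runs from 250 bases before to 50 bases after a start site. Consensus sequences of the factors that the study manipulated or followed were searched on both strands: TGANTCA for AP-1, the dimer family to which ATF proteins can belong, and CATTCC for TEAD. For E2F, the letters TTCCCGC were searched together with the variant TTGGCGC, then with the variant TTGCCGC and lastly with the variant TTCGCGC. No AP-1 match was found in the 11 promoters, against 7.81% of all 32841 promoters. TEAD matched in 1 (14.7% of all promoters), in the second promoter of Mfap2, and E2F matched in 1 (9.57% of all promoters), in the first promoter of Efemp2. The TATA sequence TATAAA was absent from the 11 (13.6% of all promoters). GC content of the 300 bases lay between 48.7% and 78.3%, against a median of 52.7% over all promoters. The 250 bases before the start site are printed for the 2 promoters with a match, and for the first promoter of Fbln5, which had the strongest peak of open chromatin of the 10 genes at P1. Capitals mark the TEAD letters GGAATG, 176 bases before the start site of Mfap2 (CATTCC on the other strand), the E2F letters TTGCCGC, 182 bases before that of Efemp2, and the 21 CpG dinucleotides of Fbln5, some of which adjoin.
Mfap2, second promoter, chr4:141010174-141010423, plus strand: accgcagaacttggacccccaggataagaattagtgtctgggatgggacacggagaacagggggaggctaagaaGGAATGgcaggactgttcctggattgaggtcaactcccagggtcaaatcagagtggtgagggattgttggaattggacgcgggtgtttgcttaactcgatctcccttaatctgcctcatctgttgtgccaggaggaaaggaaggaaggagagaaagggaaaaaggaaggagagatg
Efemp2, first promoter, chr19:5473696-5473945, plus strand: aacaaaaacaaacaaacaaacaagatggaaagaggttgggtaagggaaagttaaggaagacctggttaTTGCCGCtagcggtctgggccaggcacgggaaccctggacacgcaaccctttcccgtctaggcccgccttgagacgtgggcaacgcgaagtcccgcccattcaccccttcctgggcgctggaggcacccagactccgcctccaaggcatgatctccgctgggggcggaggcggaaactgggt
Fbln5, first promoter, chr12:101819120-101819369, minus strand: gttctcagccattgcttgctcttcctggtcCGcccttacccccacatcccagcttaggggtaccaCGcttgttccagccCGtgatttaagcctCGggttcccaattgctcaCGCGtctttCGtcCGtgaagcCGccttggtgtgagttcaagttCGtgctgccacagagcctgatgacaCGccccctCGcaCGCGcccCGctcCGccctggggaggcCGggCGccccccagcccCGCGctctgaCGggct
A match is a description of the letters and says nothing about binding.

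The passage series asks how gene expression changes as primary fibroblasts approach senescence. Between P1 and P7, 9 of the 10 genes passed the test (edgeR's quasi-likelihood test, Benjamini-Hochberg adjusted p under 0.05), 6 of which rose and 3 of which fell. Of all 13442 genes tested, 62.5% passed in this comparison. The median log2 fold change was 0.55 over the 10 genes and −0.01 over all genes tested. Eln, Mfap4 and Fbn2 fell, Fbln5, Efemp2, Fbln2, Fbn1, Mfap5 and Mfap2 rose, and Fbln1 did not pass.

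Elastin, the core of the fibre, had the steepest loss of the 10 genes. Its levels were 28.9, 24.3, 34.6 and 22.1 CPM at P1, 12.4, 10.2, 6.58 and 13.7 CPM at P3, 4.46, 7.12, 10.985 and 24.8 CPM at P5, and 4.50, 1.93, 2.38 and 7.27 CPM at P7. All P7 libraries lay below all P1 libraries, P3 did not overlap with P1, and 1 of the P5 libraries, replicate 4, reached into the range of P1. Eln was 6.79-fold lower at P7 than at P1 (log2 fold change −2.76, SE 0.43, adjusted p = 1.49e-05). The log2 fold change from P1 to P3 was −1.36 (SE 0.39, adjusted p = 0.0106), and P5 did not differ from P3 beyond the spread (0.15, adjusted p = 0.805). Eln fell again from P5 to P7 (−1.55, SE 0.44, adjusted p = 0.0188). This last step rested on few libraries: without replicate 4 of P5 it was −0.90 (adjusted p = 0.095), without replicate 2 or 3 of P7 it was −1.32 or −1.36 (adjusted p = 0.0645 and 0.0613), and with only the P5 and P7 libraries in the fit the adjusted p was 0.0672.

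The fibrillins, which build the microfibril scaffold, took different courses. Fbn1, the main fibrillin of adult tissue, was at 2176, 2208, 2347 and 2099 CPM at P1 and at 3825, 3640, 3530 and 3636 CPM at P3. It remained high at P5 (4053, 4401, 3958 and 4013 CPM), and at P7 the libraries held 2500, 3423, 3660 and 3367 CPM. The P1 libraries lay below all later ones, with replicate 1 of P7 the closest to them. Fbn1 rose from P1 to P3 (0.73, SE 0.10, adjusted p = 1.05e-05), fell from P5 to P7 (−0.34, SE 0.10, adjusted p = 0.019), and was 1.47-fold higher at P7 than at P1 (adjusted p = 5.88e-05). The fall from P5 to P7 was lost without replicate 2 of P5 (−0.31, adjusted p = 0.0567) and with only these 2 passages in the fit (adjusted p = 0.121).

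Fbn2, a fibrillin best known from development, rose and then fell. The libraries held 20.8, 22.8, 14.6 and 18.6 CPM at P1, 41.9, 45.5, 28.5 and 45.8 CPM at P3, 28.3, 40.3, 26.9 and 35.02 CPM at P5, and 13.3, 12.0, 9.61 and 11.4 CPM at P7. P3 and P5 lay above P1 without overlap, and P7 lay below it. The log2 fold change was 1.07 from P1 to P3 (SE 0.16, adjusted p = 5e-05) and −1.49 from P5 to P7 (SE 0.17, adjusted p = 7e-06), which left P7 1.66-fold below P1 (adjusted p = 0.00122).

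The fibulins that take part in elastin assembly rose from P1 to P7. Fbln5, which binds tropoelastin and integrins and without which elastic fibres are disorganised, was at 307, 321, 294 and 414 CPM at P1, 466, 493, 442 and 540 CPM at P3, 627, 597, 628 and 757 CPM at P5, and 794, 799, 778 and 749 CPM at P7. P1, P3 and P5 lay apart in rising order, and P5 and P7 overlapped through replicate 4 of both. Fbln5 was 2.34-fold higher at P7 than at P1 (log2 fold change 1.22, SE 0.10, adjusted p = 5.92e-09), the largest rise of the 10 genes. Efemp2 encodes fibulin-4, which recruits lysyl oxidase to tropoelastin. It was at 207, 212, 208 and 173 CPM at P1, 241, 210, 204 and 194 CPM at P3, 260, 284, 313 and 334 CPM at P5, and 473, 390, 355 and 344 CPM at P7. P1 and P3 overlapped, and each of the later passages lay above the one before. Efemp2 rose 1.95-fold from P1 to P7 (0.97, SE 0.11, adjusted p = 2.75e-07). Fbln2, which binds fibrillin and tropoelastin, was at 3513, 3568, 3763 and 3170 CPM at P1 and 6419, 7241, 7418 and 6178 CPM at P7, without overlap (0.96, SE 0.11, adjusted p = 2.41e-07).

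Fbln1, a fibulin of the matrix around elastic fibres and of basement membranes, did not pass over passage. It was at 90.6, 75.1, 98.0 and 71.5 CPM at P1 and at 89.5, 78.0, 73.6 and 60.9 CPM at P7. The groups overlapped, and the log2 fold change was −0.15 (95% interval −0.37 to 0.07, adjusted p = 0.254).

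Among the microfibril-associated genes, Mfap4 fell and Mfap5 and Mfap2 rose. Mfap4, whose protein binds elastin and fibrillin, was at 5.62, 7.14, 7.93 and 5.51 CPM at P1, 20.2, 14.7, 13.2 and 6.95 CPM at P3, 7.75, 9.20, 10.7 and 6.55 CPM at P5, and 2.67, 2.55, 3.00 and 1.04 CPM at P7. All P7 libraries were below all others. Mfap4 rose from P1 to P3 (1.07, SE 0.27, adjusted p = 0.00404), fell from P5 to P7 (−1.89, SE 0.31, adjusted p = 0.00026), and was 2.83-fold lower at P7 than at P1 (adjusted p = 0.00033). Mfap5 encodes MAGP-2, a small glycoprotein of microfibrils that binds fibrillins. It was at 99.9, 121, 78.8 and 85.1 CPM at P1 and 154, 151, 143 and 112 CPM at P7, where replicate 4 of P7 fell below the highest P1 library (0.54, SE 0.17, adjusted p = 0.00785). Mfap2, which encodes the related MAGP-1, was at 9.79, 7.07, 13.1 and 7.18 CPM at P1 and 19.5, 11.03, 12.5 and 13.0 CPM at P7. These groups overlapped, and the rise (0.59, SE 0.25, adjusted p = 0.0439) was lost without replicate 1, 2 or 4 of P1, replicate 2 of P3 or replicate 1 of P7, with adjusted p between 0.0501 and 0.188.

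**Figure D1:**
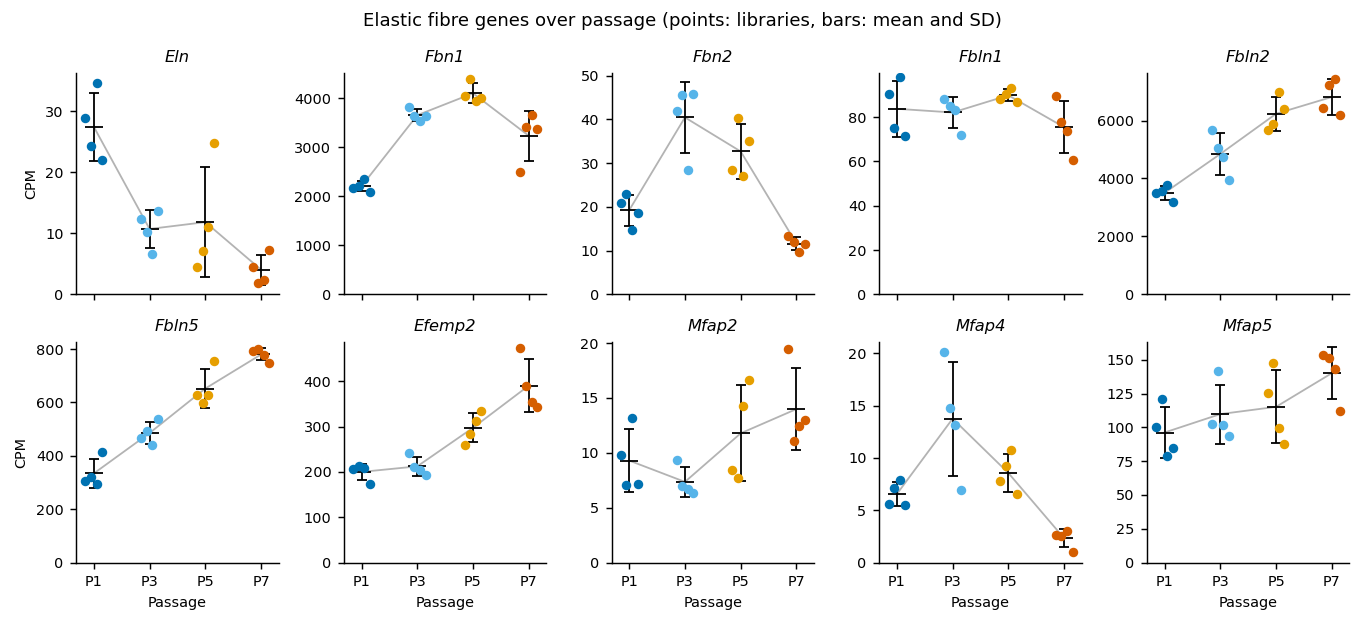
Levels of the 10 elastic fibre genes in CPM (y axis, linear) at P1, P3, P5 and P7 (x axis). Points are libraries, and bars give the mean and SD of 4 libraries, and grey lines join the means. Eln drops from a mean of 27.5 CPM at P1 to 4.02 CPM at P7, Fbn2 and Mfap4 peak at P3, and Fbln5 climbs at each passage to 780 CPM.

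By step, 5 of the 10 genes rose and 1 fell from P1 to P3 (33.4% of all genes tested passed). From P3 to P5, 4 rose and none fell (28.7% of all genes tested passed): Fbln5 (0.43), Efemp2 (0.49), Fbln2 (0.36) and Mfap2 (0.68). From P5 to P7, 1 rose and 4 fell (16.8% of all genes tested passed): Efemp2 rose by 0.39, and Eln, Fbn1, Fbn2 and Mfap4 fell. Only Fbn2 and Mfap4 passed in this last step when the other passages were left out of the fit. Between P3 and P7, 4 rose and 3 fell (51.3% of all genes tested passed), and Fbn2 and Mfap4 had log2 fold changes of −1.80 and −2.57. These comparisons share libraries. Mfap4 lay near the threshold from P3 to P5 (−0.69, adjusted p = 0.0535). It passed as a fall with DESeq2 (adjusted p = 0.0462), with no low-count filter (0.0378), and without replicate 4 of P3 (−0.90, adjusted p = 0.00956), 3 of P5 (−0.81, adjusted p = 0.0499) or 4 of P7 (−0.69, adjusted p = 0.0317). Fbn2 from P3 to P5 (−0.31, adjusted p = 0.154) passed without replicate 3 of P3 (−0.44, adjusted p = 0.0436). From P5 to P7, Fbln5 (0.26, adjusted p = 0.0933) passed without replicate 4 of P1 or of P5 (adjusted p = 0.0476 and 0.0279), and Fbln1 (−0.25, adjusted p = 0.137) without replicate 1 of P7 (−0.34, adjusted p = 0.0435). Several small calls were lost when 1 library was left out: Efemp2 from P5 to P7 without replicate 1 of P5 (0.33, adjusted p = 0.0655) or of P7 (0.29, adjusted p = 0.0565), and Fbln2 from P3 to P5 without replicate 4 of P3 (0.28, adjusted p = 0.0575) or 3 of P5 (0.31, adjusted p = 0.0635). The Mfap2 rise from P3 to P5 had an adjusted p of 0.0492 and was lost without any 1 of 9 libraries: replicate 1 of P1, 2, 3 or 4 of P3, 3 or 4 of P5, and 2, 3 or 4 of P7 (adjusted p 0.0503 to 0.201).

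The E2f4 experiments ask what a gain or a loss of this factor does in cells that still divide or are about to stop. With E2f4 OE, 4 of the 10 genes rose and 2 fell, where 57.2% of all 13199 genes tested passed. With sh1, 1 rose and 4 fell, where 17.8% of all 12310 genes tested passed. The median log2 fold change of the 10 genes was 0.23 with E2f4 OE (0.009 over all genes tested) and −0.07 with sh1 (−0.009 over all). The experiments have controls of their own, and their levels were scaled apart, so the values below stand side by side without a test between them.

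Fbn1 fell in both. With E2f4 OE it was at 1201 and 1198 CPM against 2478 and 2332 CPM in the controls (log2 fold change −1.004, SE 0.09, adjusted p = 1.85e-05), and with sh1 at 2535, 2298 and 2420 CPM against 3414, 3274 and 3596 CPM in nt (−0.50, SE 0.06, adjusted p = 5.66e-05). Neither pair of groups overlapped. Fbn2 and Fbln1 rose with E2f4 OE and fell with sh1. Fbn2 was at 392 and 377 CPM against 240 and 208 CPM with E2f4 OE (0.78, SE 0.11, adjusted p = 0.00018), and at 256, 232 and 266 CPM against 457, 435 and 482 CPM with sh1 (−0.87, SE 0.07, adjusted p = 1.67e-06). Fbln1 was at 83.7 and 89.2 CPM against 31.0 and 33.4 CPM with E2f4 OE, a 2.69-fold rise (1.43, SE 0.12, adjusted p = 1.01e-05), and at 72.4, 72.5 and 65.1 CPM against 86.8, 91.7 and 92.7 CPM with sh1 (−0.37, adjusted p = 0.00344). In each of these pairs all libraries of one group lay apart from the other.

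Mfap5 moved the other way. It was at 39.99 and 39.2 CPM with E2f4 OE against 88.8 and 91.4 CPM in the controls (−1.18, SE 0.11, adjusted p = 1.96e-05), and at 68.1, 68.1 and 79.0 CPM with sh1 against 49.3, 49.4 and 48.6 CPM in nt (0.55, SE 0.08, adjusted p = 0.000483). Mfap4 rose with E2f4 OE, from 4.67 and 5.99 CPM to 12.9 and 13.8 CPM (1.33, SE 0.18, adjusted p = 0.000138), and did not pass with sh1 (0.19, adjusted p = 0.481). Efemp2 was at 445 and 466 CPM with E2f4 OE against 261 and 360 CPM (0.55, SE 0.14, adjusted p = 0.00624), above both controls although these were far apart. Fbln2 fell with sh1 (−0.32, adjusted p = 0.00128), and its value with E2f4 OE was 0.22 (adjusted p = 0.061), which passed without either control library (0.18 and 0.25, adjusted p = 0.0478 and 0.00452). Fbln5 (0.16, adjusted p = 0.168) and Mfap2 (0.24, adjusted p = 0.232) did not pass with E2f4 OE, and Mfap2 did without replicate 2 of the controls (0.50, adjusted p = 0.00148). With sh1, Fbln5 (0.08), Efemp2 (0.16) and Mfap2 (0.02) did not pass (adjusted p = 0.389, 0.0891 and 0.903), and Efemp2 did without replicate 3 of sh1 (adjusted p = 0.0149).

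Eln itself did not pass in either experiment. With E2f4 OE it was at 109 and 106 CPM against 77.9 and 123 CPM in the controls, which bracket the treated libraries (0.10, SE 0.17, adjusted p = 0.63). Here 1 control library decided the call: without replicate 2 of the controls, Eln was higher by 0.46 (adjusted p = 0.000523). With sh1 it was at 38.2, 33.8 and 50.5 CPM against 44.4, 46.7 and 45.5 CPM in nt (−0.16, SE 0.12, adjusted p = 0.417), with replicate 3 above all nt libraries. Without that library the log2 fold change of Eln was −0.33 (adjusted p = 0.0109).

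Cell type markers also differed in these experiments. With sh1, the fibroblast sum was 20300 to 23000 CPM against 26800 to 27600 CPM in nt (2 of 6 rose and 2 fell), the smooth muscle and pericyte sum 7340 to 8260 CPM against 5730 to 5820 CPM (5 of 6 rose), and the macrophage sum 14.2 to 19.1 CPM against 5.71 to 10.3 CPM (2 of the 3 tested rose). With E2f4 OE, the smooth muscle and pericyte sum was 7320 to 8070 CPM against 5550 to 7280 CPM (3 rose and 2 fell), and the fibroblast sums were 20400 to 20500 CPM and 18700 to 21500 CPM. No fibroblast or smooth muscle marker was at 0, and the part of these shifts in the elastic fibre results was not tested.

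The Tead1 experiment used 2 hairpins against shared nt libraries. The supplement of the study lists target sequences for sh3 and sh4 that overlap almost in full. Agreement between these hairpins is therefore not that of independent target sites, and effects on other genes could be shared. With sh3, 3 of the 10 genes rose and 5 fell (35.4% of all 13012 genes tested passed), and with sh4, 3 rose and 4 fell (29.1% of all genes tested passed). The largest change was in Fbn2, which was at 91.1, 82.0 and 80.9 CPM with sh3 and 95.9, 102.4 and 106 CPM with sh4, against 218, 204 and 214 CPM in nt. All knockdown libraries lay below all nt libraries, by 2.50-fold with sh3 (log2 fold change −1.32, SE 0.05, adjusted p = 2.47e-18) and 2.09-fold with sh4 (−1.06, SE 0.05, adjusted p = 3.05e-16). Eln rose, at 104, 117 and 130 CPM with sh3 and 100, 114 and 127 CPM with sh4, against 84.1, 68.99 and 77.6 CPM in nt. The knockdown libraries were all above the nt libraries (0.61, SE 0.07, adjusted p = 7.57e-08, and 0.56, SE 0.07, adjusted p = 5.22e-07). Mfap5 rose by 0.50 with each hairpin (adjusted p = 1.77e-09 and 2.38e-09), from 94.6, 106 and 98.2 CPM in nt to 135 to 146 CPM with sh3 and 133 to 146 CPM with sh4.

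Efemp2 fell with both Tead1 hairpins. It was at 269, 241 and 263 CPM with sh3 and 262, 258 and 245 CPM with sh4, all below the 333, 352 and 349 CPM of nt (−0.42, adjusted p = 3.09e-09, and −0.44, adjusted p = 2.6e-09). Fbln2 fell by 0.20 and 0.18 on the log2 scale (adjusted p = 4.61e-06 and 2.81e-05). Fbln1 fell by 0.30 with sh3 (adjusted p = 8e-04) and by 0.19 with sh4 (adjusted p = 0.0304). The latter call and the rise of Fbn1 with sh4 (0.10, adjusted p = 0.0395) were small and were lost, with adjusted p from 0.0592 to 0.249, without replicate 1 or 3 of sh4 or replicate 2 or 3 of nt, and for Fbln1 also without replicate 2 of sh4. Mfap4 fell with sh3 (−0.43, adjusted p = 0.013), which was lost without replicate 1 of sh3 (−0.31, adjusted p = 0.1) or replicate 2 of nt (−0.24, adjusted p = 0.18), and did not pass with sh4 (−0.13, adjusted p = 0.523). Mfap2 had values of 0.01 and 0.10 (adjusted p = 0.918 and 0.338). Fbn1 with sh3 had a value of −0.08 (adjusted p = 0.109), which passed without replicate 2 of nt (−0.12, adjusted p = 0.00575).

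The direct comparison of sh4 with sh3 passed for 3 of the 10 genes (7.37% of all genes tested passed): Fbn1 and Fbn2 were higher with sh4, by 0.18 (adjusted p = 0.00204) and 0.26 (adjusted p = 0.00121), and Fbln5 was lower by 0.19 (adjusted p = 0.00171). Fbln5 was at 961, 966 and 953 CPM with sh3, 793, 886 and 841 CPM with sh4, and 815, 873 and 844 CPM in nt. It rose with sh3 alone (0.19, adjusted p = 0.000361), and sh4 and nt overlapped (−0.01, adjusted p = 0.921).

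Smooth muscle and pericyte markers fell in 4 of 6 cases with each Tead1 hairpin and rose in 1, with sums of 7670 to 8310 CPM with sh3 and 8720 to 8900 CPM with sh4 against 9890 to 10100 CPM in nt. The fibroblast sums were 23100 to 23700 CPM and 22100 to 22800 CPM against 24800 to 25900 CPM in nt, where 3 markers rose and 2 fell with sh3 and 1 rose and 2 fell with sh4. None of these markers was at 0, and the part of their shifts in the results was not tested.

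The largest fold change of the 10 genes in any comparison was in the Atf3 experiment. Atf3 itself, a low gene, passed as a fall with sh5 and did not pass with sh6. With sh5, 1 of the 10 rose and 6 fell (35.9% of all 13345 genes tested passed), and with sh6, 1 rose and 9 fell (49.8% of all genes tested passed). The median log2 fold change was −0.36 with sh5 (−0.031 over all genes tested) and −0.99 with sh6 (−0.019 over all). Eln was at 141, 157 and 155 CPM in nt, at 21.4, 23.4 and 4.62 CPM with sh5 and at 4.36, 4.55 and 7.09 CPM with sh6. No knockdown library came near the nt libraries. Eln was 9.13-fold lower with sh5 (−3.19, SE 0.43, adjusted p = 0.000806) and 28.2-fold lower with sh6 (−4.82, SE 0.48, adjusted p = 1.89e-05). Replicate 3 of sh5 stood apart from the other sh5 libraries, also in Mfap2 and Fbln2, and without it the value for Eln with sh5 was −2.73.

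Mfap4 fell with both hairpins, at 87.0, 86.8 and 90.3 CPM in nt, 31.6, 35.5 and 24.5 CPM with sh5 and 12.8, 8.27 and 13.5 CPM with sh6. The 3 groups did not overlap (−1.53, SE 0.17, adjusted p = 0.000322 with sh5, and −2.93, SE 0.18, adjusted p = 8.76e-07 with sh6). Efemp2 fell to a like degree with both, from 334, 315 and 330 CPM to 233, 254 and 216 CPM with sh5 (−0.48, adjusted p = 0.00152) and 259, 248 and 239 CPM with sh6 (−0.39, adjusted p = 0.00143). Mfap2 was at 87.6, 83.3 and 86.3 CPM in nt, 53.6, 62.8 and 22.1 CPM with sh5 and 50.8, 46.0 and 46.8 CPM with sh6. All knockdown libraries were below nt (−0.89, adjusted p = 0.0314, and −0.84, adjusted p = 0.0286). Both Mfap2 calls were lost when any 1 library of sh6 or nt was left out, with adjusted p from 0.051 to 0.0871.

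The other genes separated the hairpins. Fbn1 was at 4330, 4296 and 4013 CPM in nt and at 4196, 4230 and 3987 CPM with sh5, which overlapped (−0.03, adjusted p = 0.782), and at 2197, 2363 and 2490 CPM with sh6 (−0.84, SE 0.07, adjusted p = 4.29e-06). Fbn2 was at 430, 423 and 403 CPM in nt, 363, 382 and 334 CPM with sh5 (−0.22, adjusted p = 0.1) and 114, 112 and 142 CPM with sh6 (−1.77, SE 0.10, adjusted p = 4.31e-07). Both fibrillins thus passed with sh6 and not with sh5, although the sh5 libraries of Fbn2 were all below nt. Fbln1 was at 138, 126 and 130 CPM in nt, 128, 140 and 110 CPM with sh5 (−0.06, adjusted p = 0.645) and 61.2, 56.6 and 62.0 CPM with sh6 (−1.13, SE 0.10, adjusted p = 5.68e-06). Mfap5 was at 89.9, 90.2 and 91.5 CPM in nt, at 74.6, 75.4 and 78.8 CPM with sh5 and at 33.9, 34.6 and 41.8 CPM with sh6. Its fall with sh6 (−1.30, adjusted p = 1.47e-06) was large, and that with sh5 (−0.25, adjusted p = 0.0481) was lost without replicate 1 or 2 of sh5, 1 or 2 of sh6, or any 1 of nt (adjusted p 0.0649 to 0.129).

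Fbln5 and Fbln2 moved in opposite directions with the 2 Atf3 hairpins. Fbln5 was at 1052, 1028 and 993 CPM in nt, 1301, 1245 and 1260 CPM with sh5 (0.31, SE 0.06, adjusted p = 0.00385) and 610, 641 and 633 CPM with sh6 (−0.71, SE 0.06, adjusted p = 5.48e-06). Fbln2 was at 5191, 5619 and 5350 CPM in nt, 2593, 2694 and 1845 CPM with sh5 (−1.18, SE 0.13, adjusted p = 0.000252) and 7259, 7049 and 6358 CPM with sh6 (0.35, SE 0.13, adjusted p = 0.0365). None of these groups overlapped. The rise of Fbln2 with sh6 was lost without replicate 1 or 2 of sh6 or any 1 library of nt (0.33 to 0.39, adjusted p 0.066 to 0.107). Compared directly, sh6 and sh5 differed in 8 of the 10 genes (52.6% of all genes tested passed), 1 higher and 7 lower with sh6. The log2 difference was 1.53 for Fbln2 (adjusted p = 6.3e-06), −1.01 for Fbln5 (adjusted p = 6.49e-07), −1.55 for Fbn2 (adjusted p = 1.23e-06), −0.82 for Fbn1 (adjusted p = 6.28e-06) and −1.41 for Mfap4 (adjusted p = 0.000116). For Eln it was −1.63 (adjusted p = 0.014), lost without replicate 1 or 2 of sh6 (−1.51 and −1.53, adjusted p = 0.0581 and 0.0548).

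Fibroblast markers also differed in this experiment. Their sum was 29900 to 31500 CPM in nt, 17800 to 28000 CPM with sh5, where replicate 3 was the lowest, and 10800 to 11400 CPM with sh6, with none of the 6 at 0. With sh5, 3 of these markers rose and none fell, and with sh6, 4 fell and none rose. The sum of 6 smooth muscle and pericyte markers was 4000 to 4330 CPM in nt, 2750 to 2930 CPM with sh5 (5 fell) and 8730 to 9080 CPM with sh6 (4 rose and 1 fell). The part of these shifts in the elastic fibre results was not tested.

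**Figure D2:**
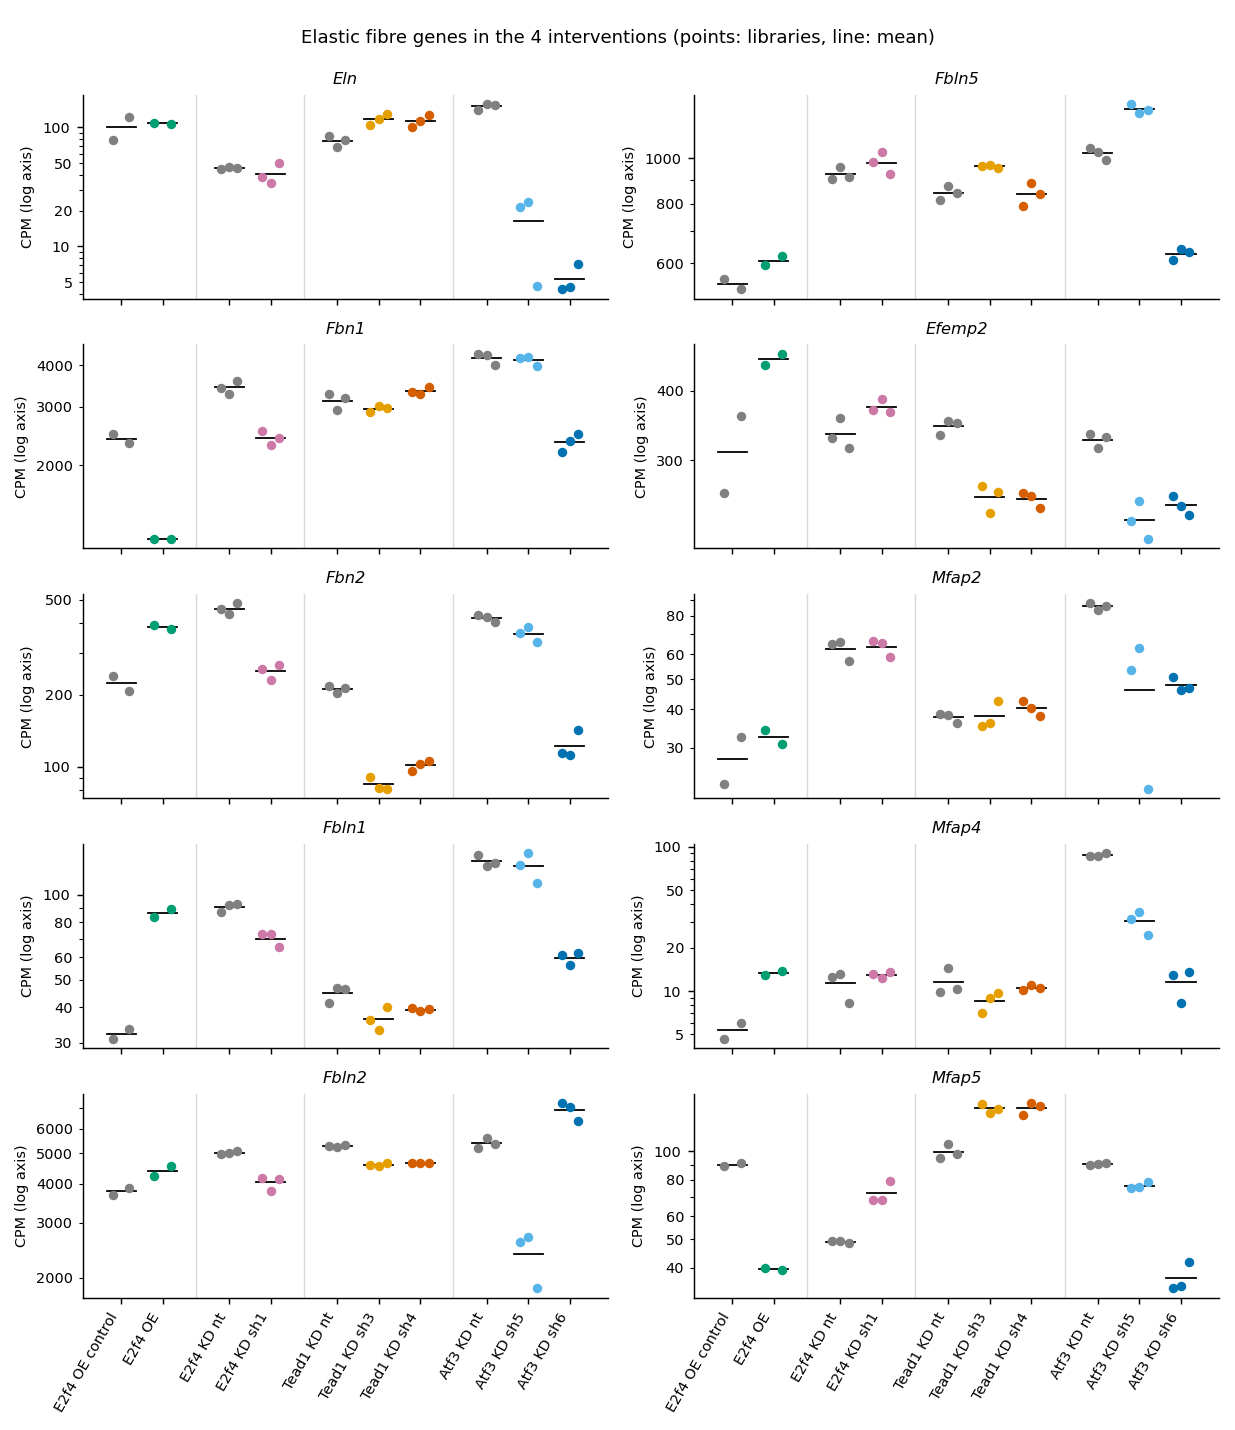
Levels of the 10 genes in CPM (y axes, log scale, each panel with its own range) in the libraries of the E2f4 OE, E2f4 knockdown (KD), Tead1 KD and Atf3 KD experiments (x axis). Points are libraries, the horizontal lines are means, and the grey points are controls. Eln drops from 141 to 157 CPM in the Atf3 nt libraries to 4.36 to 7.09 CPM with sh6, and Fbn2 is lower than nt in every Tead1 knockdown library.

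**Figure D3:**
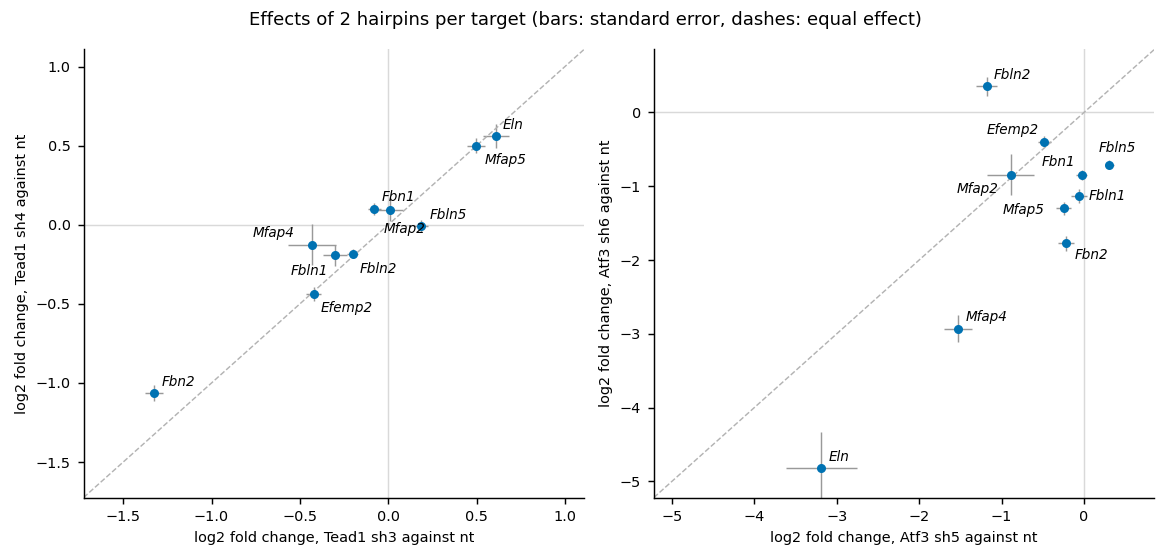
Log2 fold changes of the 10 genes with the second hairpin (y axis) against the first (x axis), for Tead1 at left and Atf3 at right. Points are fitted values, bars are standard errors, and the dashed line marks equal effects. The Tead1 hairpins target nearly the same site. With Tead1, Fbn2 is at −1.32 with sh3 and −1.06 with sh4, and with Atf3 Fbln2 is at −1.18 with sh5 and 0.35 with sh6 and Eln is lowest with both hairpins.

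**Figure D4:**
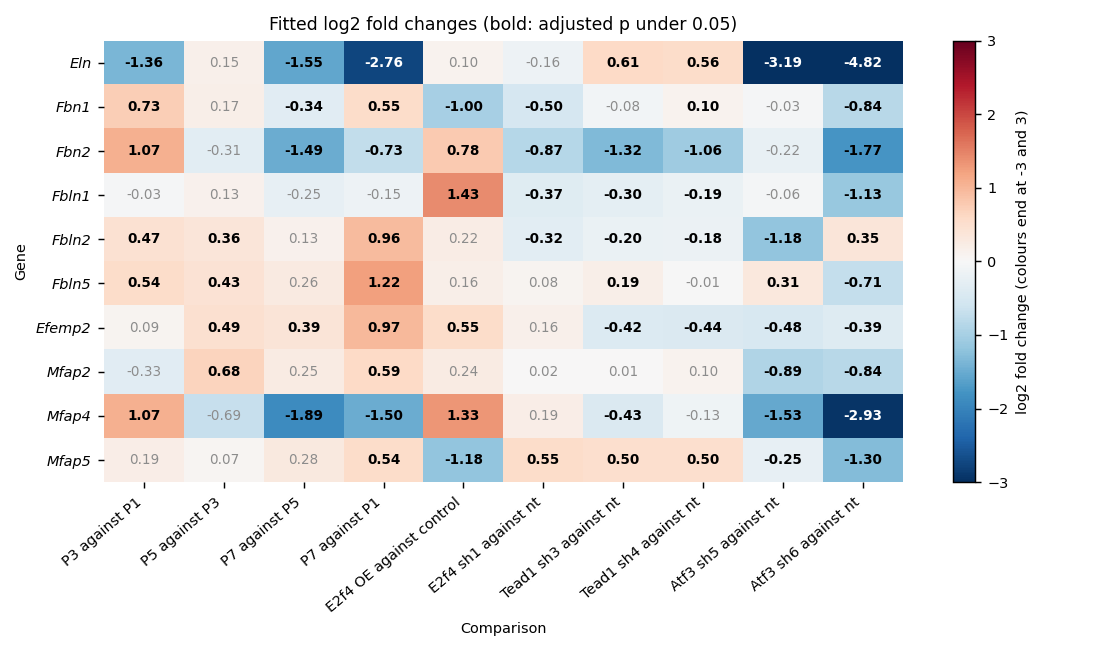
Fitted log2 fold changes of the 10 genes (rows) in 10 comparisons (columns), coloured blue for lower and red for higher, with values past an adjusted p of 0.05 in bold and colours that end at −3 and 3. The Eln row runs from −4.82 with Atf3 sh6 to 0.61 with Tead1 sh3, and the Atf3 sh6 column holds a bold value for each gene.

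Fold changes over 9 comparisons with a control or with P1 were used to look for the genes most like Eln among the 12103 genes tested in all of them. The measure was the root mean square of the differences in log2 fold change, where 0 is the same value throughout. The nearest were Tspan18 at 0.766, Anpep at 0.827 and Wscd2 at 0.891. Their log2 fold changes, like those of Eln, were below 0 at P7 (−2.11, −2.36 and −2.71) and with Atf3 sh6 (−5.21, −3.62 and −3.39), and above 0 with Tead1 sh3 (0.99, 1.10 and 1.34). Tspan18 encodes a tetraspanin and Anpep an aminopeptidase of the cell surface. The nearest of the other elastic fibre genes was Mfap4, at 1.48 and rank 123. Comparisons within an experiment share their controls, so these distances are a description.

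A list of 23 genes of elastin crosslinking and assembly was read beside the 10 genes. It holds lysyl oxidases, latent TGF-beta binding proteins, emilins, fibronectin and ADAMTS-like proteins. From P1 to P7, 22 of the 23 were tested, 11 rose and 5 fell, with a median log2 fold change of 0.36 (62.5% of all genes tested passed). The largest rises were in Loxl2, a lysyl oxidase, from a mean of 252 to 1360 CPM (2.43, SE 0.11, adjusted p = 1.41e-12), in Fn1, which encodes fibronectin, from 3630 to 18500 CPM (2.35, SE 0.15, adjusted p = 1.2e-10), and in Efemp1, which encodes fibulin-3, from 51.8 to 174 CPM (1.75, SE 0.14, adjusted p = 2.43e-09). Thsd4, whose product binds fibrillin-1, fell from 12.8 to 1.19 CPM (−3.41, SE 0.24, adjusted p = 5.04e-10). With Atf3 sh5, 2 of 22 rose and 10 fell (median −0.57, 35.9% of all genes tested passed), and with sh6, 3 rose and 15 fell (median −1.06, 49.8% of all), among them Efemp1 (−2.59) and Thsd4 (−2.45). Loxl2 and Fn1 rose with sh6, by 0.70 and 0.92.

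With E2f4 OE, 6 of 21 genes of this list rose and 7 fell (57.2% of all genes tested passed), and with sh1, 1 of 20 rose and 6 fell (17.8% of all). Efemp1 fell in both, by 1.48 and 0.71 on the log2 scale. With Tead1 sh3, 10 of 21 rose and 7 fell (35.4% of all genes tested passed), and with sh4, 9 rose and 7 fell (29.1% of all). Of the 7 genes of the elastin receptor and of integrins that bind the fibre, 3 rose and 1 fell from P1 to P7 (62.5% of all genes tested passed), and 5 rose and 1 fell with Atf3 sh6 (49.8% of all). Of the 8 enzymes that degrade elastin, 7 were tested over passage, and 1 rose and 2 fell from P1 to P7 (62.5% of all genes tested passed). Those that fell were Mmp12, the macrophage elastase, from a mean of 102 to 0.62 CPM, and Ctss, the lysosomal protease cathepsin S, from 88 to 0.825 CPM. The summed macrophage markers moved with them, from a mean of 376 to 41.1 CPM, and their part in it was not tested.

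Open chromatin at the promoters was read from ATAC-seq peak lists of 13 samples (4 at P1 and 3 each at P3, P5 and P7). For each sample, the strongest peak that reached within 1000 bases of a start site of the gene was given as its percentile of −log10 p among all peaks of that sample, since the lists carry no read counts and the depth is unknown. The lists held 230188 to 251580 peaks at P1, 203912 to 210079 at P3, 222803 to 265932 at P5 and 255276 to 261834 at P7, so all P7 lists were longer than all P1 lists, and the part of list length in the percentiles was not tested. All 10 genes had a peak at P1. With 4 samples against 3 the smallest two-sided p of the exact permutation test is 0.0286. The test compares means, and groups that do not overlap can also give 0.0571. The smallest p was reached between P7 and P1 by 5 of the 10 genes, all lower at P7: Fbn2, Fbn1, Mfap2, Fbln5 and Fbln2. Of 15678 genes with a promoter peak in these samples, 31.5% were lower at P7 by the same test and 5.88% higher. The median difference was −6.50 percentile points over the 10 genes and −1.75 over all.

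Fbn2 had the widest difference, with percentiles of 48.9, 56.6, 41.8 and 55.4 at P1, 24.9, 54.9 and 41.5 at P3, 21.1, 36.1 and 24.4 at P5, and 22.0, 4.4 and 23.1 at P7 (−34.2 points, exact permutation p = 0.0286). P5 and P7 lay below P1 without overlap. At Mfap4 the peak was weak, with percentiles of 16.6, 31.4, 9.0 and 18.8 at P1. It was present in 4 of 4 samples at P1, 3 of 3 at P3, 1 of 3 at P5 and 0 of 3 at P7 (exact permutation p = 0.0571). RNA of both genes was also lowest at P7. Earlier passages differed. At P5, Fbn2 RNA was above P1 (log2 fold change 0.76, edgeR, adjusted p = 0.000683) while its peak was below it. Mfap4 RNA at P5 did not pass against P1 (0.39, edgeR, adjusted p = 0.241). Fbln1, whose RNA did not pass, was at percentiles of 87.4, 79.4, 86.6 and 83.9 at P1 and 76.2, 73.2 and 73.1 at P7. These did not overlap (−10.2 points, exact permutation p = 0.0571).

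For other genes the change of the peak from P1 to P7 did not match that of the RNA. Fbln5, whose CpG-rich first promoter is printed above, was at percentiles of 97.9, 98.2, 98.4 and 98.2 at P1 and 92.5, 93.5 and 93.2 at P7 (−5.1 points, exact permutation p = 0.0286), while its RNA rose. Fbn1 (−7.3 points), Mfap2 (−5.7) and Fbln2 (−3.1) were also lower at P7 at the same exact permutation p, and their RNA rose. With fold enrichment in place of −log10 p, Fbn1 and Mfap2 no longer reached this p (0.114 and 0.143 by the exact permutation test). Efemp2 and Mfap5, whose RNA rose, were at means of 90.6 and 96.6 at P1 and 92.0 and 96.3 at P7 (exact permutation p = 0.686 and 0.657). At Eln, the summit of the peak lay 1116 to 1139 bases from the start site. Its percentiles were 71.5, 64.1, 69.6 and 73.2 at P1 and 39.6, 64.6 and 75.9 at P7, which overlapped (−9.6 points, exact permutation p = 0.429).

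**Figure D5:**
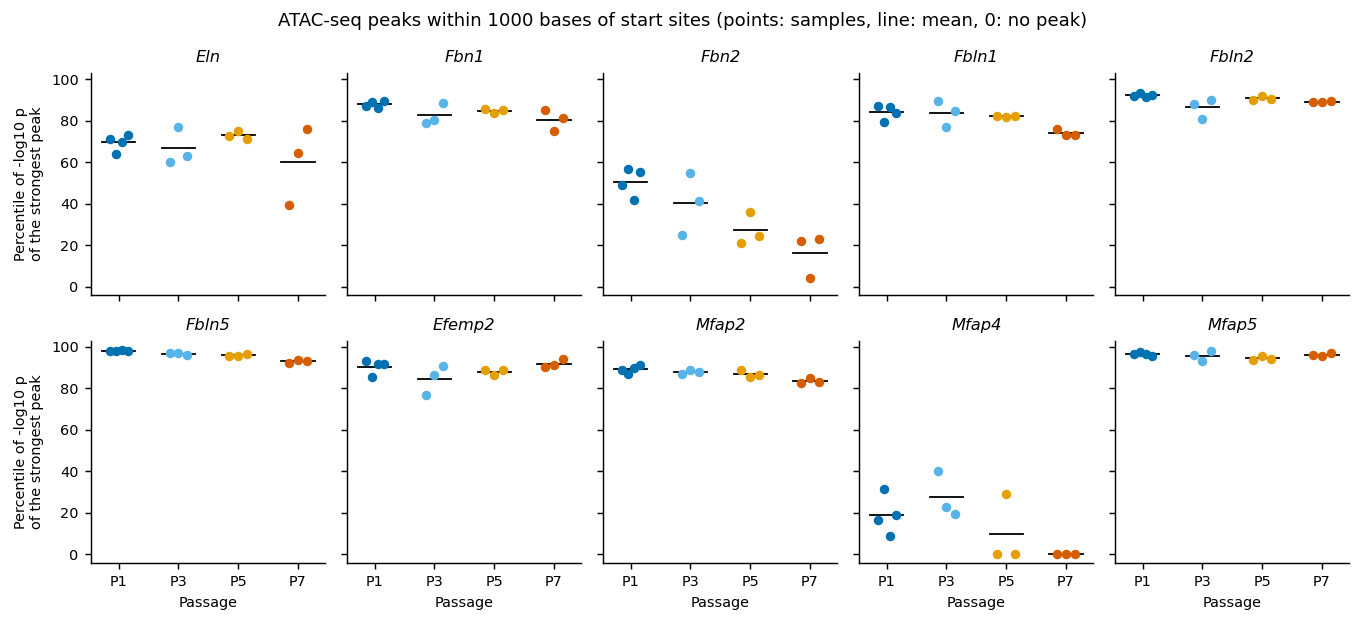
Percentile of −log10 p of the strongest ATAC-seq peak reaching within 1000 bases of a start site (y axis) for the 10 genes at P1, P3, P5 and P7 (x axis). Points are samples, lines are means, and 0 stands for no peak. Fbn2 has a mean of 50.7 at P1 and 16.5 at P7, the Mfap4 peak is missing in all P7 samples, and Fbln5 and Mfap5 stay above 90.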

How the data were processed

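Conditions and replicate numbers came from the sample labels. The authors' RNA-seq workflow ran Trimmomatic 0.39 for trimming, HISAT2 2.2.1 for alignment to mm10 and HTSeq 0.12.4, without strand, for the deposited raw counts per gene. In 28 libraries these counts also hold 5 rows that name no gene, with 7.5% to 16.8% of the reads, which were left out. ATAC-seq reads were aligned by the authors with Bowtie2 2.3.5.1, and peaks were called in each sample with MACS2. The deposited peak lists give fold enrichment and −log10 p.

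All groups of an experiment entered 1 fit in edgeR 4.0.16 (R 4.3.3, limma 3.58.1), with filterByExpr, TMM scaling, the quasi-likelihood test and Benjamini-Hochberg adjustment over all genes tested. The fit was tested on simulated data. CPM (after TMM scaling) were computed from the counts. ATAC-seq percentiles were compared by two-sided exact permutation tests (Python 3.11.15, scipy 1.17.1). No replicates were the same library (chi-square per degree of freedom 2.74 to 59.9 over 50 pairs). All 10 members were named, and so were the partners with the 3 largest rises and the 3 largest falls from P1 to P7 among those whose average log2 CPM reached 1, and the 3 genes nearest to Eln. Members and lists were chosen with earlier results of these data known. Alternatives were DESeq2 1.42.0, its size factors, 2 other count filters, only the 2 groups compared, a replicate block, leaving out each library, and for peaks fold enrichment or a window of 500 bases. RRBS samples were not analysed here.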

Additional observations from a re-analysis of the deposited data

Results flagged for a closer look

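Efemp2 at P1 held 1 library far from the others: replicate 4 was at 173.1 CPM, against 207.3, 207.7 and 212.2 CPM in the other libraries, and its gap was 0.876 of the whole range, above Dixon's critical value for 4 samples. It was 1 of 40 groups of 4 tested, where chance alone flags about 1 in 20.

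Hairpins against the same target differed in the direct test of sh4 against sh3 for Tead1 in Fbn1 (0.18), Fbn2 (0.26) and Fbln5 (−0.19), as log2 differences. For Atf3, sh6 differed from sh5 in Eln (−1.63), Fbn1 (−0.82), Fbn2 (−1.55), Fbln1 (−1.07), Fbln2 (1.53), Fbln5 (−1.01), Mfap4 (−1.41) and Mfap5 (−1.05). Beside these, the fibroblast marker sum had a mean of 24400 CPM with sh5 and 11200 CPM with sh6, and that of smooth muscle and pericytes 2840 and 8940 CPM. Their part in the differences was not tested.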

How the results depend on the processing

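Over 2200 values of single genes under these alternatives, 2100 kept their direction, where called, and their side of the threshold, 73 lost it, 26 gained it and 1 reversed. The reversal was Mfap2 with Atf3 sh6 against sh5, at 0.05 (adjusted p = 0.892) with all libraries and −0.30 (adjusted p = 0.00374) without replicate 3 of sh5, and up to 0.34 without replicate 2 of sh5. From P5 to P7, 5 of the 10 genes passed, and 2 with only these groups in the fit. At the promoters, 5 genes reached the smallest p, and 3 by fold enrichment. The cause of these shifts was not tested. Leaving out each library gave 4 to 6 genes from P5 to P7, 8 or 9 from P1 to P7, 6 to 9 with E2f4 OE, 5 to 7 with Atf3 sh5 and 8 to 10 with sh6. Whether shared replicate numbers mark shared samples is not known from the labels. Correlations of the deviations of same-numbered libraries lay between −0.262 and 0.276 over all comparisons, and in none with 3 or more pairs was every one over 0.1. Every sample correlated best with its own number in 2 of 13 comparisons (P3 against P1 and E2f4 sh1 against nt), a hint from the data and not the design. In P7 against P1 this held for 7 of 8 samples, and in Tead1 sh3 and Atf3 sh6 against nt for 0 of 6. With the replicate as a block, 9 genes passed from P1 to P7, 6 from P3 to P5 (4 without it, with Mfap4 and Fbn2 added as falls), 7 from P5 to P7 (5 without it) and 6 with Atf3 sh5, and over all 130 values 6 gained and 1 lost the threshold. Depth limited Mfap4 and Eln at P7 and Atf3 itself, all at a few CPM.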
